A study of Mus musculus with 6 samples.

Results

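Elastic fibres and the microfibrils that carry them were followed through 10 genes: Eln, Fbn1, Fbn2, Fbln1, Fbln2, Fbln5, Emilin1, Mfap2, Mfap4 and Mfap5. They were chosen by name, as components of these fibres, from a table of 55385 mouse genes, with earlier results of these data known. All 10 had a row and all 10 passed the filter on low counts, among 18504 genes tested. The 6 libraries came from PDVC57, an established mouse squamous carcinoma line. In 3 libraries the genotype was Sox2 KO, a knockout of a stem cell transcription factor, and in 3 it was Sox2 OE, its overexpression. The series' design text speaks of carcinoma cells low or high in Sox2 taken from grafted tumours, and its question is how Sox2 acts on neutrophils. The groups share the cell line. No unmodified control library was used here, so each difference is between overexpression and knockout. The labels do not say how the cells were separated from host tissue, what the host was, or whether each group was 1 clone. They also do not say whether the replicates came from separate tumours, so p-values measure only the spread between these libraries, which may be technical.

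An elastic fibre has a core of cross-linked elastin laid on a scaffold of fibrillin microfibrils. It gives recoil to skin, artery and lung, and fibroblasts and smooth muscle cells are its usual producers. Microfibrils also hold latent TGF-beta through the LTBP proteins. Fibulins bridge elastin to the microfibril and to the enzymes that cross-link it, and EMILIN and MFAP proteins sit along the microfibril or at its border with elastin.

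The libraries held between 31247976 and 38543221 counts over mouse genes. Sox2 measured 1.44, 1.12 and 0.685 CPM (counts per 1000000 counts of the normalized library size) in knockout replicates 1, 2 and 3 and 78.3, 128 and 104 CPM with overexpression. The 25 epithelial markers were present in both groups, with a summed level of 7270.3 to 11052 CPM with knockout and 17103 to 22409 CPM with overexpression. The 10 fibroblast markers summed to 56340.5 to 83429 CPM with knockout and 319 to 490.0 CPM with overexpression, and none was at 0 in all libraries of a group. The first of them, Pdgfra, a growth factor receptor of fibroblasts, averaged 247 ± 20.7 CPM with knockout and 1.45 ± 0.431 CPM with overexpression (SD, n = 3). In bulk RNA, fewer cells of a type cannot be told apart from less RNA per cell.

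Promoter sequences are shown for 4 members to set a pair with a large fall, Fbn1 and Mfap2, beside a pair with a small one, Fbln2 and Fbln5. Each is a RefSeq window on GRCm38.p6 from 250 bases before to 50 after an annotated start, written 5′ to 3′ on the gene's strand. Capitals mark matches to the GC box GGGCGG on either strand. The windows lie at chr2:125506389-125506688 (minus strand), chr4:141010431-141010730 (plus), chr6:91212514-91212813 (plus) and chr12:101819070-101819369 (minus).
Fbn1: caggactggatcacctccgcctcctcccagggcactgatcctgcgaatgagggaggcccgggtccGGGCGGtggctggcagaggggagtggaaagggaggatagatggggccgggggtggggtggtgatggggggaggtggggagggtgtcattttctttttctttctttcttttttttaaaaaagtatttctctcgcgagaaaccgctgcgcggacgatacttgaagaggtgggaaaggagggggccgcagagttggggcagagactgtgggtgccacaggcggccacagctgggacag
Mfap2: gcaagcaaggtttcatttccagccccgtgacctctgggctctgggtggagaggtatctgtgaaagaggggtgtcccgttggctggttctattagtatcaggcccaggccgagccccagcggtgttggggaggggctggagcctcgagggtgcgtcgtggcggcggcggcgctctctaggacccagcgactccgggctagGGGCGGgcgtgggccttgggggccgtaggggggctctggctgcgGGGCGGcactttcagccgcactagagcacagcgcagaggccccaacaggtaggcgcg
Fbln2: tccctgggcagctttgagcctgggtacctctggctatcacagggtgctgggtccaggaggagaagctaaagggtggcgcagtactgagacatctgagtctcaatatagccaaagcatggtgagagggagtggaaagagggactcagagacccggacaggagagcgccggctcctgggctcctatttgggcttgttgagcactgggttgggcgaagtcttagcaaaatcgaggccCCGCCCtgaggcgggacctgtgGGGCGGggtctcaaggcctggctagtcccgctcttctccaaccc
Fbln5: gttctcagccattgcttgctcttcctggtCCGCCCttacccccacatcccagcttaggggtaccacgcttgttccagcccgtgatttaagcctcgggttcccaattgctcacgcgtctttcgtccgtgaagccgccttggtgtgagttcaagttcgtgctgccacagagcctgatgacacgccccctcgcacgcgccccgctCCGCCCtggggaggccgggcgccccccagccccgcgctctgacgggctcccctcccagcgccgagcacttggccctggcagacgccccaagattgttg
The RefSeq table held 9 windows for 6 members: Fbn1, Mfap2, Emilin1, Fbln2, Fbln5 and Fbln1. All 9 were searched on both strands for the SOX core ACAAAG, its variant ACAATG, the TATA box TATAAA, the AP-1 site TGANTCA and the GC box. The GC box had 1 match in the Fbn1 window and 2 in each of the other 3 windows shown. It also had 2 matches in 1 window of Fbln1, and none of these matches overlap. No member window held the SOX core, which 18.7% of all 32851 windows hold, its variant (12.6%), the TATA box (13.6%) or the AP-1 site (7.81%). The GC box is in 35.7% of all windows. GC content was 60.3% for Fbn1, 68.0% for Mfap2, 60.3% for Fbln2 and 65.7% for Fbln5, against a median of 52.7% over all windows. In the windows shown, both the pair with a large fall and the pair with a small one thus held the GC box and none of the other 4 motifs. Mfap2 and Fbln5 each had another window, not shown, with no GC box and a GC content of 52.0% and 48.7%. The Emilin1 window and the other Fbln1 window had no GC box either.

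All 10 members fell with Sox2 overexpression (edgeR quasi-likelihood test, adjusted p under 0.05), where 18.0% of tested genes were lower past the threshold and 13.6% higher. Their median log2 fold change was -6.72, against -0.016 over all tested genes. For all 10, every overexpression library lay below every knockout library, which held for 26.5% of tested genes. A fall of over 3 on the log2 scale, an 8-fold difference, was called in 8 members and in 9.04% of tested genes. The members formed a group of 7 with log2 fold changes between -9.23 and -6.11 and a group of 3, the fibulins, between -3.18 and -2.11. This split was made after the values were seen. The 10 fibroblast markers fell in the same libraries (median -7.65 on the log2 scale), and their part in the members' fall was not tested.

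**Figure D1:**
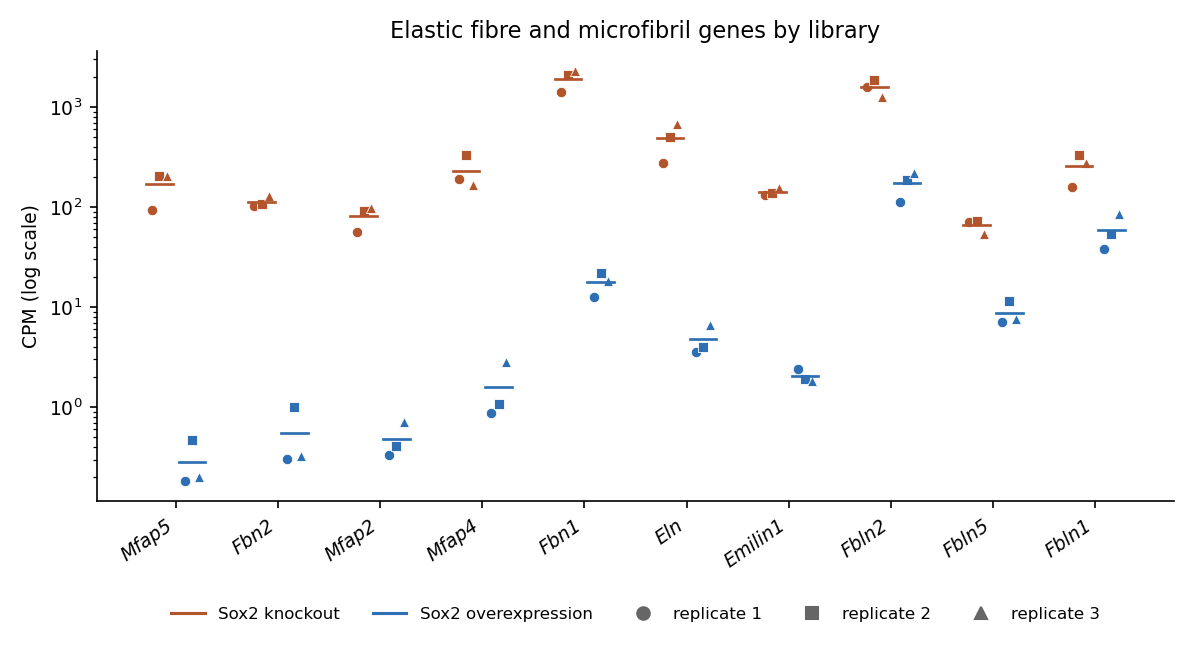
Level of each member in each library in CPM, on a log axis, ordered by fitted fold change. Points are libraries (circle, square and triangle for replicates 1, 2 and 3), lines are group means. Knockout and overexpression libraries do not overlap for any member, and the gap is smallest for Fbln1 (means of 257 and 59.3 CPM) and widest for Mfap5 (169 and 0.286 CPM).

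Elastin itself is encoded by Eln (ENSMUSG00000029675, chromosome 5, 134702593 to 134747323, minus strand, GENCODE M21 on GRCm38; all members are protein coding), which makes the soluble precursor tropoelastin. It measured 279, 506 and 673 CPM in knockout replicates 1, 2 and 3. With overexpression it measured 3.60, 4.03 and 6.65 CPM, from 118, 119 and 263 counts. The lowest knockout library was still 42.0-fold above the highest overexpression library. The fitted log2 change was -6.67 ± 0.43 (SE, adjusted p = 8.48e-06). Within the knockout group Eln varied most of the members, with a coefficient of variation of 40.7%. Its exons overlap those of Gm30003 on the other strand, which had at most 2 counts a library.

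Fbn1 (ENSMUSG00000027204, chromosome 2, 125300594 to 125507993, minus strand) encodes fibrillin-1, the backbone of microfibrils and the gene mutated in Marfan syndrome. It measured 1414, 2094 and 2282 CPM with knockout and 12.6, 21.9 and 18.5 CPM with overexpression. All 3 overexpression libraries were low, and replicate 1 was the lowest in each group. Its log2 change of -6.77 ± 0.33 (SE, adjusted p = 2.21e-06) was within 1 standard error of that of Eln. Its exons overlap those of Gm9913 on the other strand, which had 5 to 381 counts a library.

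Fbn2 (ENSMUSG00000024598, chromosome 18, 58008623 to 58210487, minus strand) encodes fibrillin-2, the fibrillin of developing tissue. It measured 102, 107 and 129.7 CPM with knockout, a coefficient of variation of 13.2%. With overexpression it had 10, 30 and 13 counts, or 0.3052, 1.015 and 0.3288 CPM. The highest of these, in replicate 2, was 3.33-fold above the lowest. The log2 change of -7.72 ± 0.41 (SE, adjusted p = 3.22e-06) was -8.44 without that library (adjusted p = 4.79e-05), and the call held. Exons of Gm26507 overlap it on the other strand.

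Within each library, Fbn2 counts were 5.11% to 7.19% of Fbn1 counts with knockout and 1.78% to 4.64% with overexpression. The groups did not overlap for this balance of the fibrillins. On the log2 scale the ratio differed by -1.08, overexpression minus knockout (exact permutation test, two-sided, p = 0.1, the smallest that 3 against 3 can give). Adjusted over the 16 ratios tested in all it was 0.1455, so the difference did not pass the threshold.

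The small microfibril glycoproteins Mfap2 (MAGP-1) and Mfap5 (MAGP-2) are related proteins that bind fibrillin. Mfap2 (ENSMUSG00000060572, chromosome 4, 141010418 to 141015984, plus strand) measured 56.7, 92.1 and 97.5 CPM with knockout. It had 11, 12 and 28 counts with overexpression, or 0.336, 0.406 and 0.708 CPM. The lowest library of each group was replicate 1 and the highest replicate 3. Its log2 change was -7.37 ± 0.36 (SE, adjusted p = 2.12e-06).

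Mfap5 (ENSMUSG00000030116, chromosome 6, 122505845 to 122529290, plus strand) measured 94.1, 207 and 206 CPM with knockout, where replicate 1 was the low library. With overexpression it had 6, 14 and 8 counts, or 0.183, 0.474 and 0.202 CPM. Its log2 change of -9.23 ± 0.49 (SE, adjusted p = 3.12e-06) was the lowest of the members, and 0.281% of tested genes had a lower one. No other member lay within 1 standard error of it.

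The MAGP genes were compared with each other within each library. With knockout, Mfap2 had 44.6% to 60.2% of the counts of Mfap5 in the same library. With overexpression it had 183.3%, 85.71% and 350.0% in replicates 1, 2 and 3. On the log2 scale the ratio was 1.78 higher with overexpression, with no overlap of the libraries (exact permutation test, two-sided, p = 0.1, adjusted p = 0.1455 over 16 ratios), and did not pass the threshold. The overexpression ratios rest on 6 to 28 counts a gene.

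Mfap4 (ENSMUSG00000042436, chromosome 11, 61485431 to 61488900, plus strand) encodes a glycoprotein with a fibrinogen-like domain that binds elastic fibres. It measured 189.8, 333 and 168 CPM with knockout, highest in replicate 2. With overexpression it had 29, 32 and 111 counts, or 0.885, 1.08 and 2.81 CPM, highest in replicate 3. The log2 change was -7.15 ± 0.52 (SE, adjusted p = 1.59e-05), and -7.85 without overexpression replicate 3 (adjusted p = 2.34e-05). Its exons overlap those of Mapk7 on the other strand, which had 1178 to 1757 counts a library and a log2 change of -0.20 (adjusted p = 0.336). The strand setting of the counting is not given in the sources used here, so reads of Mfap4 and Mapk7 in the overlap cannot be told apart.

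Emilin1 (ENSMUSG00000029163, chromosome 5, 30913402 to 30921277, plus strand) encodes a glycoprotein at the border of elastin and microfibril. It measured 132, 138 and 156 CPM with knockout and 2.41, 1.93 and 1.82 CPM with overexpression. It had the lowest coefficient of variation of the members in each group, 8.66% and 15.3%. The log2 change was -6.11 ± 0.19 (SE, adjusted p = 1.06e-06), with the smallest standard error of the 10.

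The 3 fibulins had the smallest falls. Fbln2 (ENSMUSG00000064080, chromosome 6, 91212455 to 91272540, plus strand) encodes fibulin-2, a protein of basement membranes and of elastic fibres in vessel walls. It measured 1595, 1868 and 1263 CPM with knockout and 112, 187 and 221 CPM with overexpression. The overexpression mean was 9.09-fold lower, a log2 change of -3.18 ± 0.29 (SE, adjusted p = 6.92e-05).

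Fbln5 (ENSMUSG00000021186, chromosome 12, 101746565 to 101819055, minus strand) encodes fibulin-5, which binds tropoelastin and is needed for fibre assembly. It measured 70.2, 73.0 and 54.3 CPM with knockout and 7.11, 11.6 and 7.66 CPM with overexpression. Knockout replicate 3 was the low library of its group. A log2 change of -2.91 ± 0.23 (SE, adjusted p = 3.01e-05) put Fbln5 within 1 standard error of Fbln2.

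Fbln1 (ENSMUSG00000006369, chromosome 15, 85205949 to 85286535, plus strand) encodes fibulin-1, a protein of basement membranes and of the elastin core. It measured 159, 334 and 278 CPM with knockout and 38.2, 53.4 and 86.2 CPM with overexpression. The lowest knockout library was 1.84-fold above the highest overexpression library, the narrowest gap of the members. Its log2 change was -2.11 ± 0.35 (SE, adjusted p = 0.00214). Over the alternatives its adjusted p lay between 5.92e-09 and 0.0203.

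The 25 epithelial markers themselves had a median log2 fold change of 1.17. Scaling the libraries to these epithelial genes takes their rise off every gene. It lowered the members' log2 changes to between -10.45 and -3.33, and moved the median of all genes from -0.016 to -1.18. Relative to that median the members lay between -9.26 and -2.14, and each passed the threshold in all 13 alternative fits.

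Counts relative to Col1a1, the abundant fibroblast collagen gene, were compared within each library, where the scaling of libraries plays no part. Col1a1 itself had a log2 change of -7.55 ± 0.32 (SE, adjusted p = 1.56e-06). Against it, Mfap2, Mfap4 and Fbn2 had ratios that overlapped between the groups. On the log2 scale the ratio differed by 0.16 for Mfap2 (exact permutation test, two-sided, p = 0.5), overexpression minus knockout. The same test gave 0.27 for Mfap4 (exact p = 0.7) and -0.30 for Fbn2 (exact p = 0.6). Mfap2 counts were 0.302% to 0.391% of Col1a1 counts with knockout and 0.325% to 0.464% with overexpression. Without overexpression replicate 3 the differences of Fbn2 and Mfap4 changed sign, to 0.11 and -0.069.

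The other 7 members had ratios to Col1a1 that did not overlap between the groups. The share of all tested genes without such overlap was not counted. Col1a1 fell by 7.55 on the log2 scale, where the median over all tested genes was -0.016. A gene that did not change would thus have a higher ratio to Col1a1 with overexpression, so a higher ratio is not particular to the members. Each had an exact two-sided permutation p of 0.1, the smallest possible, and an adjusted p of 0.1455 over the 16 ratios tested, so none passed the threshold. Mfap5 was lower relative to Col1a1 with overexpression, with a log2 difference of -1.61. Fbn1, Eln and Emilin1 were higher, by 0.78, 0.93 and 1.45. The fibulins were higher by more: 4.34 for Fbln2, 4.63 for Fbln5 and 5.43 for Fbln1. Fbln2 had 5.06% to 8.50% of the Col1a1 counts with knockout and 108% to 162% with overexpression. Fbln1 had 0.845% to 1.27% with knockout and 37.0% to 56.4% with overexpression. Fbln5 had 0.217% to 0.374% with knockout and 5.02% to 9.98% with overexpression.

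**Figure D2:**
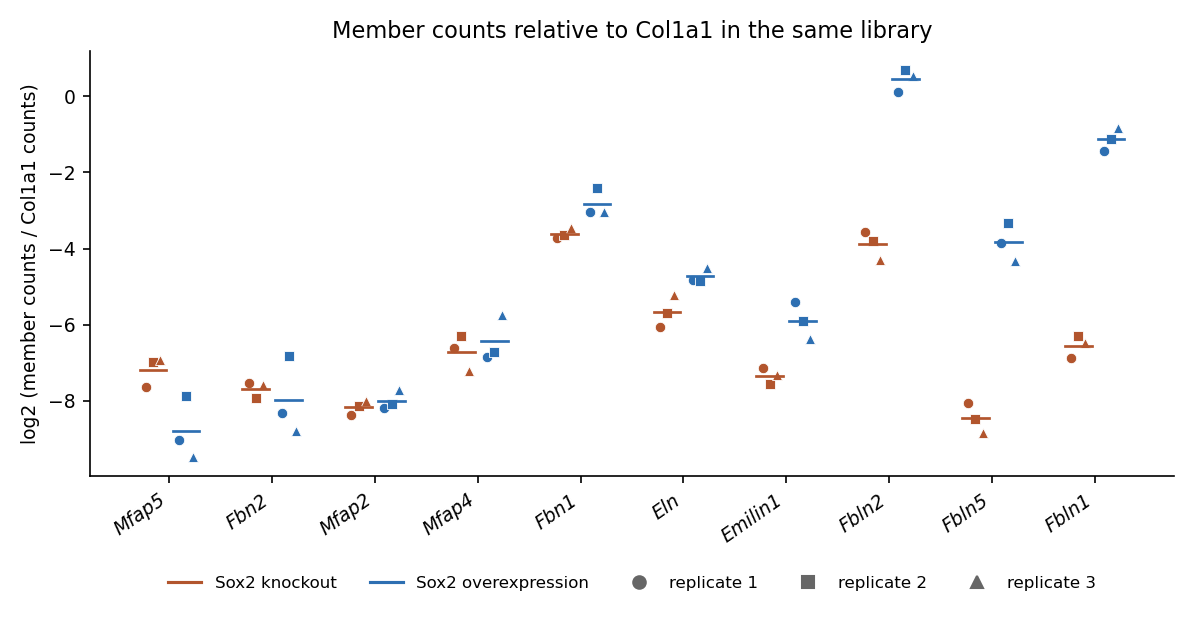
Log2 ratio of each member's counts to Col1a1 counts in the same library, ordered by the difference between groups. Points are libraries and lines are group means. Fbln2, Fbln5 and Fbln1 lie 4.34 to 5.43 higher with overexpression on the log2 scale, while Fbn2, Mfap2 and Mfap4 overlap between the groups.

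The remaining ratios were between members. Fbln5 had 8.06% to 25.1% of the Eln counts with knockout and 115% to 287% with overexpression, a log2 difference of 3.71 (exact permutation test, two-sided, p = 0.1). Emilin1 over Eln overlapped between the groups, at 23.2% to 47.5% and 27.4% to 66.9% (exact permutation p = 0.2). Mfap4 over Fbn1 overlapped too (exact permutation p = 0.4). Among the fibulins, Fbln2 counts were 455% to 1006% of those of Fbln1 with knockout and 256% to 351% with overexpression, a log2 difference of -1.10 (exact permutation p = 0.1). Fbln5 over Eln and Fbln2 over Fbln1 did not overlap between the groups, but with adjusted p-values of 0.1455 by the exact permutation test neither passed the threshold.

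The make-up of the members' counts is given as a description, with no test. The 10 genes together held 0.4216% to 0.5502% of a knockout library's counts and 0.0186% to 0.0355% of an overexpression library's. The 3 fibulins supplied 30.1% to 44.6% of the members' counts with knockout and 88.6% to 91.0% with overexpression. Fbn1 supplied 34.6% to 43.0% with knockout and 5.34% to 7.73% with overexpression. The summed level of the other 7 members was 2268 to 3713 CPM with knockout and 20.29 to 30.98 CPM with overexpression. As a share of the summed fibroblast markers of the same library, these 7 were 4.03% to 4.74% with knockout and 6.32% to 8.35% with overexpression. The fibulins were 2.04% to 3.24% of that sum with knockout and 49.2% to 68.4% with overexpression. The sum differs in make-up between the groups, since 1 of its markers, Pdpn, fell least, with a log2 change of -1.39. Pdpn measured 171 to 230 CPM with knockout and 63.4 to 79.7 CPM with overexpression, so it weighs more in the overexpression sums.

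**Figure D3:**
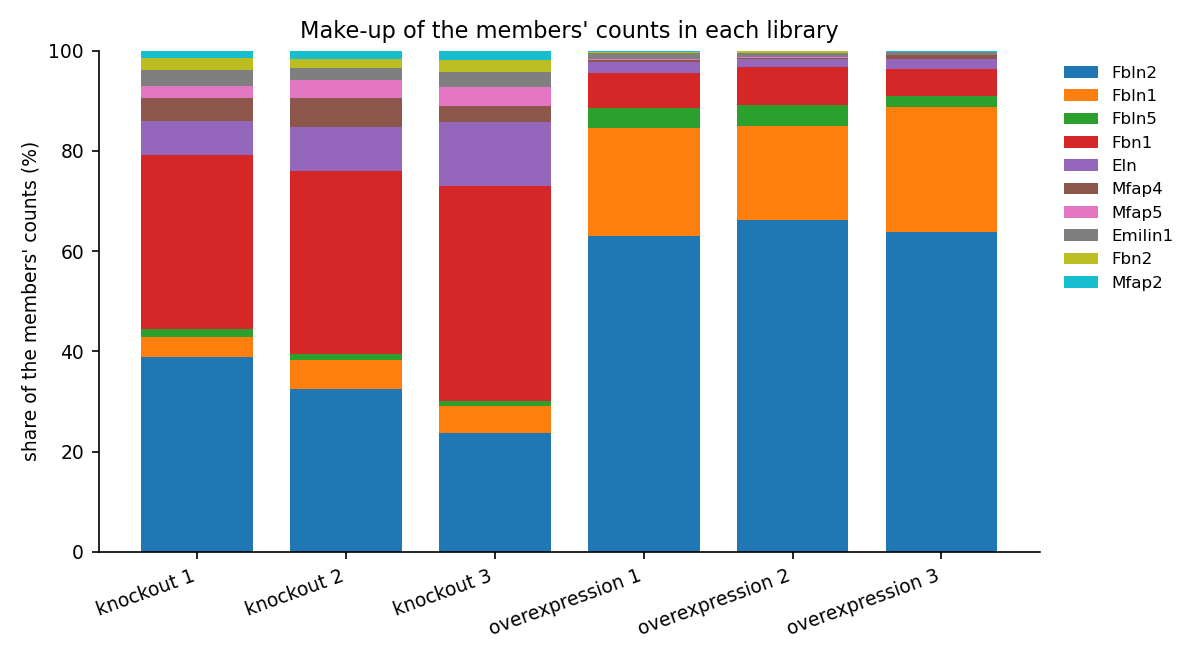
Share of each member in the counts of all 10 members, in percent, for each library. Counts are not divided by gene length. The 3 fibulins make up 30.1% to 44.6% of the knockout bars and 88.6% to 91.0% of the overexpression bars.

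Levels were compared between members per length of the joined annotated exons, as RPKM (CPM per kilobase). With knockout Fbln2 led with a level of 247 ± 47.5 RPKM (SD, n = 3), followed by Fbn1 (159 ± 37.7) and Mfap4 (119.8 ± 46.7). Mfap2 (67.8 ± 18.3), Eln (60.0 ± 24.4), Fbln1 (58.7 ± 20.5) and Mfap5 (47.1 ± 18.1) came next. Emilin1 (28.8 ± 2.49), Fbln5 (9.52 ± 1.46) and Fbn2 (8.54 ± 1.13) closed the order. Libraries of neighbours did not overlap between Fbln2 and Fbn1, between Mfap4 and Mfap2, or between Emilin1 and Fbln5, and all other neighbours overlapped.

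With overexpression Fbln2 (27.2 ± 8.78 RPKM, SD, n = 3) and Fbln1 (13.6 ± 5.62) led and overlapped each other. A gap with no overlap separated them from Fbn1 (1.45 ± 0.388), Fbln5 (1.27 ± 0.352), Mfap4 (0.828 ± 0.5503), Eln (0.588 ± 0.204), Emilin1 (0.416 ± 0.0636) and Mfap2 (0.399 ± 0.163), whose neighbours all overlapped. Mfap5 (0.0798 ± 0.0453) and Fbn2 (0.0416 ± 0.0305) were lowest, with a gap to Mfap2. By the length of the longest coding transcript, an alternative chosen after seeing the data, the knockout order after Fbln2, Fbn1 and Mfap4 became Eln, Mfap5, Mfap2 and Fbln1, and Emilin1, Fbln5 and Fbn2 were again last. The knockout gap after Mfap4 was then lost, since Mfap4 and Eln overlapped, and a gap opened between Fbln1 and Emilin1. With overexpression by that length Fbln2 and Fbln1 again led with a gap below them, Fbln5 and Fbn1 exchanged places, as did Eln and Mfap4. The gap between Mfap2 and Mfap5 closed, and 1 opened between Mfap5 and Fbn2.

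Replicates of a group differed by member. Knockout replicate 1 was the lowest knockout library for 7 members, and knockout replicate 3 was the lowest for Fbln2, Fbln5 and Mfap4. Eln, Fbn1, Fbn2, Emilin1 and Mfap2 were highest in knockout replicate 3, and the other 5 members in replicate 2. Eln was 2.41-fold higher in knockout replicate 3 than in replicate 1, while Fbln2 was at 0.792 of its level there. Overexpression replicate 1 was the lowest overexpression library for 9 members, the exception being Emilin1. That library also had the lowest sum of fibroblast markers of its group, 319 CPM against 369 and 490.0 CPM. Knockout replicate 1 likewise had the lowest such sum of its group, 56340.5 CPM against 83429 and 78302 CPM. Knockout replicate 3 had the highest summed markers of white blood cells, 204.7 CPM against 34.97 and 56.8 CPM in the other knockout libraries. The part of fibroblasts or white blood cells in the spread was not tested.

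Genes that assemble and cross-link the fibre were taken from a list of 24. Of 23 tested, 16 fell and 3 rose (1 scaled to epithelial genes), where 18.0% of all tested genes were called lower and 13.6% higher. The count of 3 that rose was near that background. The median log2 fold change was -4.13, against -0.016 over all tested genes. Emilin3 did not pass the filter, with at most 10 counts in a library. Lox and Loxl1 encode lysyl oxidases that form the cross-links of elastin. Lox measured 194, 363 and 342 CPM with knockout and 2.01, 1.73 and 1.95 CPM with overexpression, a log2 change of -7.30 ± 0.31 (SE, adjusted p = 1.56e-06). Loxl1 measured 257, 415 and 436 CPM with knockout and 1.71, 3.31 and 2.61 CPM with overexpression, a log2 change of -7.18 ± 0.35 (SE, adjusted p = 2.12e-06). The groups did not overlap for either enzyme. The smallest p-values of the list among genes that fell were those of Bgn, which encodes the proteoglycan biglycan, and of Loxl2, another lysyl oxidase. Bgn changed by -6.21 ± 0.25 (SE, adjusted p = 1.56e-06) and Loxl2 by -6.66 ± 0.28 (SE, adjusted p = 1.56e-06) on the log2 scale.

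Loxl4 was the lysyl oxidase gene that rose. It measured 73.6, 47.3 and 44.5 CPM with knockout and 197, 210.0 and 156 CPM with overexpression, and the groups did not overlap. The log2 change was 1.77 ± 0.23 (SE, adjusted p = 4.96e-04), and scaled to epithelial genes 0.63 (adjusted p = 0.0231).

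The latent TGF-beta binding proteins, which join microfibrils, went in different directions. Ltbp2 averaged 217 ± 36.9 CPM with knockout and 18.6 ± 5.74 CPM with overexpression (SD, n = 3), a log2 change of -3.55 ± 0.26 (SE, adjusted p = 1.66e-05). Ltbp1 changed by -1.48 ± 0.29 (SE, adjusted p = 0.00497). Ltbp3 measured 403, 368 and 460.1 CPM with knockout and 347, 584 and 319 CPM with overexpression, with overlapping groups and a log2 change of 0.022 ± 0.24 (SE, adjusted p = 0.955). Scaled to epithelial genes Ltbp3 was lower, at -1.18 (adjusted p = 0.00296). Ltbp4, which takes part in elastin assembly with fibulin-5, measured 129, 131 and 104 CPM with knockout and 281, 372 and 339 CPM with overexpression. It rose by 1.45 ± 0.17 (SE, adjusted p = 3.38e-04) on the log2 scale, and scaled to epithelial genes the value was 0.29 (adjusted p = 0.201).

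The fibulins on the assembly list were Efemp1 (fibulin-3), Efemp2 (fibulin-4) and Fbln7, and all 3 fell. Efemp2, which works with lysyl oxidase in elastin assembly, measured 98.6, 142 and 165 CPM with knockout and 13.5, 22.7 and 15.4 CPM with overexpression. Its log2 change of -2.97 ± 0.27 (SE, adjusted p = 5.80e-05) lay between those of Fbln2 and Fbln5. Its exons overlap those of Mus81 on the other strand, which had 392 to 656 counts a library and a log2 change of -0.080 (edgeR adjusted p = 0.796). Efemp2 had 444, 672 and 609 counts with overexpression. With no strand setting given, reads of Efemp2 and Mus81 in the overlap cannot be told apart. Efemp1 had 3, 9 and 5 counts with overexpression and 1825 to 7409 counts with knockout, a log2 change of -9.58 ± 0.67 (SE, adjusted p = 1.34e-05). The fibulin genes therefore did not all fall by a small amount. Adamtsl4 also rose, by 0.83 ± 0.24 (SE, adjusted p = 0.0290), but its log2 change was -0.36 scaled to epithelial genes (adjusted p = 0.299). It was not called without knockout replicate 1, knockout replicate 2 or overexpression replicate 1.

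**Figure D4:**
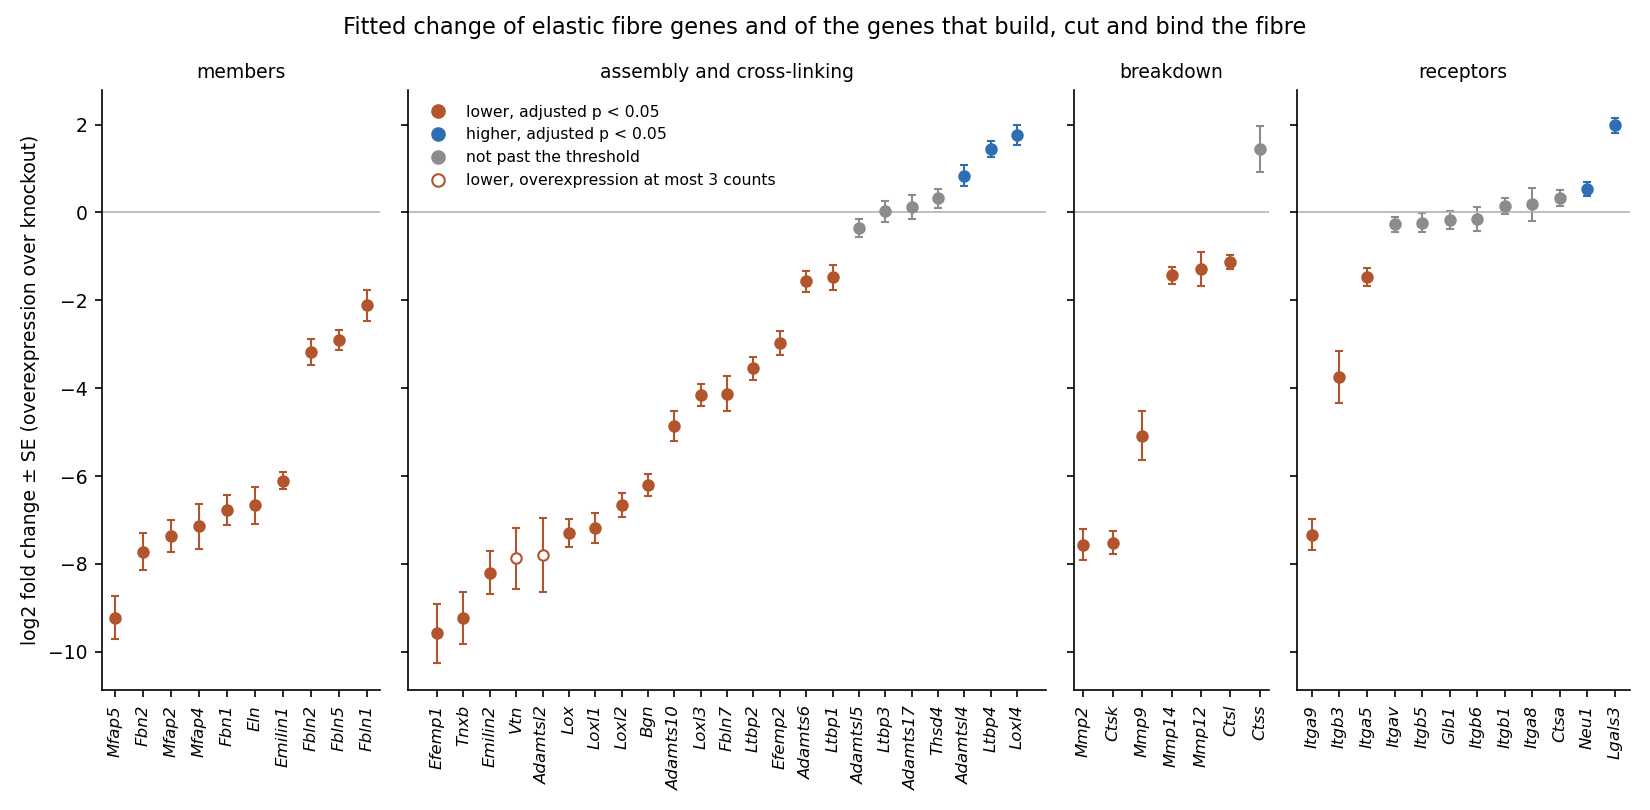
Log2 fold change (overexpression over knockout) with its standard error for tested genes of the members and of the assembly, breakdown and receptor lists. Brown points fell, blue points rose and grey points did not pass the threshold, and open points are fitted values of genes with at most 3 counts in every overexpression library. All 10 members lie below 0. The genes that rose are Loxl4, Ltbp4 and Adamtsl4 on the assembly list and Lgals3 and Neu1 on the receptor list. Several grey points also lie above 0.

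Proteases that can cut elastin or microfibrils formed a list of 11, of which 7 were tested. The neutrophil enzymes Elane, Prtn3 and Ctsg and the epithelial Mmp7 did not pass the filter. Prtn3 had 17, 11 and 8 counts with knockout and 0, 2 and 1 with overexpression, and the others had at most 4 counts in a library. Of the 7, 6 fell, where 18.0% of all tested genes were called lower, and the median was -1.43. Among them Mmp12, macrophage elastase, changed by -1.29 ± 0.39 (SE, adjusted p = 0.0345) and was not called without knockout replicate 2 (adjusted p = 0.123) or overexpression replicate 1 (adjusted p = 0.0627). Ctss, which encodes cathepsin S, did not pass the threshold at a log2 change of 1.45 ± 0.53 (SE, adjusted p = 0.0669). It was 0.65 without overexpression replicate 1 (adjusted p = 0.239), and was called higher with no filter, with DESeq2 and without overexpression replicate 3. The smallest p-values were those of Ctsk, a collagen- and elastin-cutting cathepsin, and Mmp2, a gelatinase. Ctsk averaged 304 ± 58.6 CPM with knockout and 1.65 ± 0.275 CPM with overexpression (SD, n = 3), a log2 change of -7.52 ± 0.26 (SE, adjusted p = 1.06e-06). Mmp2 averaged 1198 ± 313 and 6.32 ± 1.86 CPM (SD, n = 3), a log2 change of -7.56 ± 0.35 (SE, adjusted p = 1.98e-06).

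Receptors for elastic fibre proteins formed a list of 12, all tested. Of these, 3 fell and 2 rose, counts near the background of 18.0% lower and 13.6% higher over all tested genes. The median log2 fold change was -0.16. Itga9, an integrin subunit, had 2, 4 and 6 counts with overexpression and 556 to 858 with knockout, a log2 change of -7.34 ± 0.35 (SE, adjusted p = 2.09e-06). Itga5, the alpha subunit of a fibronectin receptor, changed by -1.47 ± 0.20 (SE, adjusted p = 7.35e-04). Lgals3, which encodes a galactoside-binding lectin, averaged 216 ± 16.5 CPM with knockout and 851 ± 115 CPM with overexpression (SD, n = 3), a log2 change of 1.98 ± 0.17 (SE, adjusted p = 5.09e-05). Neu1, the sialidase of the elastin receptor complex, rose by 0.53 ± 0.17 (SE, adjusted p = 0.0412), but scaled to epithelial genes it was -0.65 (adjusted p = 0.0201). It was not called with any 1 of the 3 knockout libraries left out, without overexpression replicate 3 or with the replicate number as a block. Scaled to epithelial genes, 11 of the 12 receptors were called lower and 1 higher, and Lgals3 was 0.81 (adjusted p = 0.00525). That scaling called 13834 of all 18504 tested genes lower and moved their median to -1.18. The 11 include the 3 that fell without it, and the others were called lower only under this shift of most genes.

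Most tested markers of other cell types moved with the groups too. The 10 smooth muscle and pericyte markers summed to 562 to 755 CPM with knockout and 113 to 180.1 CPM with overexpression, and 8 fell and 1 rose. The first of them, Myh11, smooth muscle myosin, measured 7.18 to 10.7 CPM with knockout and 0.609 to 0.824 CPM with overexpression. The 8 endothelial markers summed to 33.1 to 121 CPM with knockout and 12.5 to 19.7 CPM with overexpression, 6 of 7 tested fell, and Cdh5, the endothelial cadherin, had 0, 1 and 3 counts with overexpression. White blood cell markers summed to 34.97 to 204.7 and 8.32 to 23.1 CPM, 4 of 6 tested fell, and Ptprc, the pan-leukocyte CD45, had 14, 16 and 20 counts with overexpression. The other 2 tested, Csf1r and Ly6g, were not called (edgeR adjusted p = 0.103 and 0.184), with overlapping groups. Csf1r averaged 6.42 CPM with knockout and 11.6 CPM with overexpression, and Ly6g 2.15 and 4.74 CPM. Over all tested genes 18.0% were called lower and 13.6% higher. Of 25 epithelial markers 20 rose, and the other 5 did not pass the threshold. The first of these, Krt5, the keratin of basal cells, measured 772, 1105 and 218 CPM with knockout and 1389.7, 1720.3 and 2778 CPM with overexpression (adjusted p = 0.0584, edgeR). Krt5 was called higher with the replicate number as a block (adjusted p = 0.0463), with no filter, with DESeq2, without knockout replicate 2 and without overexpression replicate 1. The part of each of these cell types in the members' levels was not tested.

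By Pearson's correlation of log2 CPM over the 6 libraries, among 8441 genes outside the members with an average log2 CPM of at least 4, the genes most like Eln were Srpx, Col6a5, Gem, Dpt and Sirpa. Those most like Fbn1 were Loxl1, Lama4, Serpinh1, Sod3 and Rcn3. With groups this far apart the measure mostly records the gap between them: 566 genes had r of at least 0.95 with Eln and 584 with Fbn1. The genes named had r of at least 0.9987 for Eln and 0.9998 for Fbn1, given as a description only.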

How the data were processed

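RNA of 6 libraries was sequenced, 3 of each Sox2 genotype, with low-input cDNA libraries per the labels' protocols. The deposited table gives whole-number counts for each gene and library. The submitters' processing notes name kallisto 0.44.0 and mm10 with no role. If the counts are rounded kallisto estimates, reads shared by similar genes were split by estimation. Annotation and strand setting are not given in the sources used here. The 96 rows that name no mouse gene (at most 2.23e-05% of a library) were left out.

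Symbols, lengths and positions are from GENCODE M21 (GRCm38), which named 55144 of 55385 gene IDs. Low genes were removed by edgeR's filterByExpr at its minimum count of 10 and total of 15. Libraries were normalized with TMM and compared by the quasi-likelihood test of edgeR 4.0.16 in R 4.3.3, with group as the only term. Benjamini-Hochberg adjustment covered all 18504 tested genes, at a threshold of 0.05. The standard error is the size of the log2 fold change over the square root of F. Log2 ratios within a library added 0.5 to each count and were tested by exact permutation in scipy 1.17.1.

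Members and lists were chosen with earlier results of these data known. The rule for named genes took Sox2, the members, 8 assembly genes, the 2 smallest p-values a direction in each list, the first marker of each cell type, and the 5 genes most like Eln and like Fbn1. Any other gene was named after its values were seen. A count of 0 allows up to 3 counts, 0.0759 to 0.101 CPM, for counting error only.

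Alternatives were RLE and upper-quartile normalization, scaling to epithelial genes, no filter, robust dispersion, a replicate block, DESeq2 1.42.0 and leaving out each library. The test was checked on simulated counts with far fewer changed genes than were called in the data. It recovered 27 of 85 genes changed by 1 on the log2 scale, 34 of 54 changed by 2 and 49 of 51 changed by 3. Of its 116 calls, 6 were false. Small changes can thus be missed.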

Additional observations from a re-analysis of the deposited data

Results flagged for a closer look

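The row of the construct sequence mCherry, which no comparison above uses, had 8 counts in knockout replicate 3, above the 3 counts that a count of 0 allows. It had 1 count in knockout replicate 2 and 0 in the other 4 libraries. Groups of 3 libraries were too small for a check of single libraries that stand apart.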

How the results depend on the processing

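All 130 alternative values of the members' log2 fold changes kept their direction and their call. Same-numbered libraries did not deviate together across genes (correlations of 0.0508, 0.0223 and -0.0399). These values gave no sign of pairing by number but cannot exclude it, and the labels do not state it. The replicate block called 5593 genes in place of 5848, and 1 receptor gene higher in place of 2. Scaled to epithelial genes, 14181 genes passed the threshold, 13834 lower and 347 higher, in place of 3329 lower and 2519 higher. In that scaling 1 assembly gene rose and 12 receptor genes passed, 11 lower and 1 higher. The log2 fold changes of Adamts17 (-0.99), Adamtsl4 (-0.36), Ctsa (-0.83), Itga8 (-0.97), Itgb1 (-1.01), Ltbp3 (-1.18), Neu1 (-0.65) and Thsd4 (-0.84) turned negative there. With no filter, and with DESeq2, 1 breakdown gene rose, and 0 to 1 did with a library left out (Ctss, without overexpression replicate 3). With a library left out, 1 to 2 receptor genes rose, and 1446 to 2599 of all genes did, with 1446 without knockout replicate 2 and 1610 without knockout replicate 3. In the same way the log2 difference of the ratio to Col1a1 ranged from -0.89 to 0.11 for Fbn2 and from -0.069 to 0.48 for Mfap4, and the sign changed without overexpression replicate 3. The cause was not tested. Mfap5, Fbn2 and Mfap2 rest on 6 to 30 counts with overexpression, which limits the precision of their fall.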
